A study of Mus musculus with 15 samples.

Results

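Oxidative phosphorylation is carried out by complexes I to V of the inner mitochondrial membrane, and the genes of their subunits are described here in cells of the injured mouse cortex. Members are the protein-coding genes whose GENCODE symbols name a mitochondrially encoded subunit (mt-Nd, mt-Co, mt-Cytb, mt-Atp) or a nuclear one (Nduf with A, B, C, S or V and a number, Sdh, Uqcr, Cox4 to Cox8, Atp5). Of 33223 genes listed in the count tables, 95 are members, 13 mitochondrial and 82 nuclear. A further 2 genes that match by symbol, Cox8c and a second Atp5o entry, are not used here. The 13 mitochondrial members belong to complex I (7), III (1), IV (3) and V (2). The 82 nuclear members belong to complex I (35), II (4), III (8), IV (18, with Ndufa4) and V (17). Atp5s matches by its symbol and is not a core subunit of complex V.

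The data are bulk RNA-sequencing counts from the ipsilateral cortex of mice killed 1 day after controlled cortical impact, a piston blow that models traumatic brain injury, here moderate and to the right parietal cortex. All mice carried floxed EphA4 alleles (EphA4f/f). KO mice also carried VeCadCreERT2, a tamoxifen-inducible Cre under the VE-cadherin promoter, which acts in endothelial cells, and WT mice carried the floxed alleles alone. Dissociated cortex was passed over CD45 and CD31 microbeads, and the libraries come from the CD45 fraction and from the flow-through that the beads did not hold. The groups are 4 CD45 KO, 3 CD45 WT, 3 flow-through KO and 4 flow-through WT libraries. Neither ages nor animals are given. The p-values therefore rest on the variation among these libraries, part of which may be technical, and a CD45 and a flow-through library may share an animal.

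The fifth library labelled as flow-through WT (replicate 5) is a column of the CD45 count table, its markers are those of CD45 libraries, and it is left out of every result unless named. Ptprc, which encodes CD45, lay at 805 to 1043 CPM (counts scaled to the total of the library) in CD45 KO and 816 to 980 CPM in CD45 WT libraries, against 0.66 to 0.955 CPM in flow-through KO and 0.854 to 1.22 CPM in flow-through WT libraries. The summed level of 6 neutrophil markers was 3491 to 6603 CPM in CD45 KO and 4796 to 6100 CPM in CD45 WT libraries, against 4.91 to 6.30 CPM in flow-through KO and 5.19 to 9.78 CPM in flow-through WT libraries. The monocyte marker Ly6c2 and the neutrophil marker Ly6g had no count in any flow-through library. The summed level of 7 oligodendrocyte markers was 433 to 956 CPM in CD45 KO and 388 to 1518 CPM in CD45 WT libraries, against 32142 to 39870 CPM in flow-through KO and 24268 to 34355 CPM in flow-through WT libraries. For 7 endothelial markers it was 289 to 483 CPM in CD45 KO and 314 to 332 CPM in CD45 WT libraries. Flow-through KO libraries were at 40.9 to 58.5 CPM and flow-through WT libraries at 44.4 to 59.4 CPM, so the CD45 fraction holds more endothelial RNA. Epha4, the deleted gene, was measured at 36.03 to 42.2 CPM in flow-through KO and 38.5 to 43.0 CPM in flow-through WT libraries, and since neither fraction is an endothelial isolate this does not check the deletion. Total counts were 11574414 to 31337948 in CD45 libraries and 19204814 to 27270907 in flow-through libraries.

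Complexes I, III and IV pass electrons to oxygen and pump protons, complex II feeds electrons from succinate without pumping, and complex V, the ATP synthase, uses the proton gradient to make ATP. Mitochondrial DNA encodes core subunits of complexes I, III, IV and V, and its transcripts are made as long precursors inside the organelle. All other subunits are encoded in the nucleus and imported. Neurons of the cortex depend heavily on this pathway, while activated myeloid cells are known to rely more on glycolysis. Which cells set the values below was not tested.

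Of the 13 mitochondrial members, 6 could barely be measured, and their sequence is shown for that reason. Mitochondrial DNA has a copy on chromosome 1 of the nuclear genome (GRCm38 chr1:24611535-24616197, minus strand), where GENCODE annotates 7 pieces, named Gm29216, Gm28661, Gm10925, Gm28437, Gm28438, Gm10222 and Gm28439. The piece Gm28661 matched mt-Co2 without a mismatch over 681 bases. The beginnings of both, at chrM:7013-7072 (plus strand) and chr1:24615506-24615565 (minus strand), read alike from 5′ to 3′.
mt-Co2, bases 1 to 60: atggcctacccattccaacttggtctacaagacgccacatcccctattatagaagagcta
Gm28661, bases 1 to 60: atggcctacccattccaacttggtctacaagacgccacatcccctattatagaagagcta
In the same way mt-Atp6 matched without a mismatch over 678 bases, mt-Co3 over 783, mt-Nd3 over 342 and mt-Nd4l over 294. Of mt-Nd4 the first 876 bases matched, which leaves 502 outside the copy. Of mt-Co1 the last 483 bases matched with the single substitution A1066T (gene base, position counted from the gene's first base, base of the copy), and 1062 bases lie outside. This match begins at base 1063, so the substitution stands at its edge and is uncertain. mt-Atp8 lies between matched neighbours and shares 43 bases with mt-Atp6 (chrM:7927-7969, plus strand), shown because reads there belong to both genes, with the start codon of mt-Atp6 and the stop codon of mt-Atp8 in capitals.
mt-Atp8 and mt-Atp6, shared bases: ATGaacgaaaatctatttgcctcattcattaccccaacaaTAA

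The 6 members that lie within the span of the copy (mt-Co2, mt-Atp8, mt-Atp6, mt-Co3, mt-Nd3 and mt-Nd4l) had 0 to 126 counts per library, and together they took 0.0317% to 0.0533% of the mitochondrial counts. The other 7 members had 51 to 318630 counts per library. How reads that match both places were counted is not given in the sources used here, so the values of these 6 are uncertain, and the mitochondrial share below is in effect a share over 7 genes. Among the 7, mt-Co1 (cytochrome c oxidase subunit 1, the catalytic subunit of complex IV) took the most counts, with a median of 38.1% of mitochondrial counts in CD45 KO, 38.6% in CD45 WT, 41.2% in flow-through KO and 40.2% in flow-through WT libraries. Per kb of gene, the order of median levels in the flow-through KO libraries was mt-Co1 (9381 CPM per kb), mt-Cytb (5519), mt-Nd1 (5509), mt-Nd2 (3761), mt-Nd4 (1854), mt-Nd5 (1375) and mt-Nd6 (70.8). The neighbours mt-Cytb (3828 to 5670 CPM per kb) and mt-Nd1 (2756 to 5521 CPM per kb) overlapped over these libraries. mt-Nd6, the only member encoded on the light strand, was below the other 6 of these in every group. The levels per kb divide by the whole gene. Of mt-Nd4, 876 of 1378 bases match the copy, and of mt-Co1 483 of 1545. The levels per kb of mt-Nd4 and mt-Co1, and the place of mt-Nd4 in this order, are therefore uncertain.

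**Figure D1:**
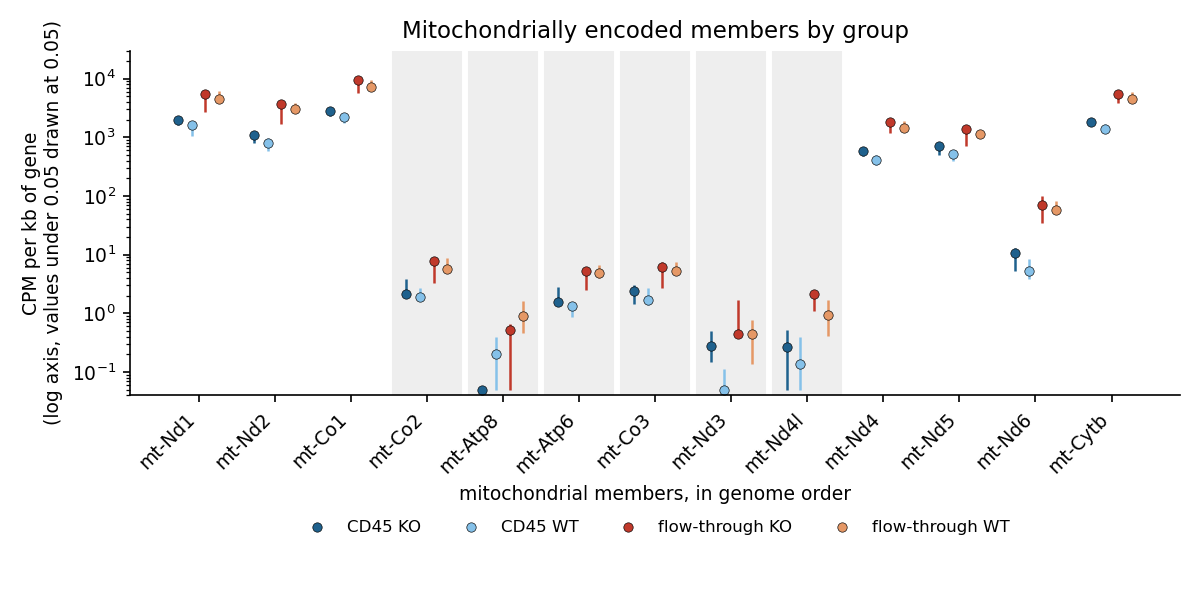
Level of each mitochondrial member in CPM per kb of gene (log axis), as the median (point) and the range over libraries (line) of the 4 groups, with values under 0.05 drawn at 0.05; grey marks the 6 members within the span of the nuclear copy. The 6 lie below 10 CPM per kb in every library, and mt-Nd6 lies between 3.89 and 99.9.

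The mitochondrial members took 1.15% ± 0.170 of all counts in CD45 KO (SD, n = 4) and 0.881% ± 0.184 in CD45 WT libraries (SD, n = 3), against 3.05% ± 0.844 in flow-through KO (SD, n = 3) and 2.94% ± 0.493 in flow-through WT libraries (SD, n = 4). The nuclear members took 0.498% ± 0.0319 in CD45 KO and 0.479% ± 0.0567 in CD45 WT libraries, against 0.806% ± 0.0448 in flow-through KO and 0.755% ± 0.0649 in flow-through WT libraries, with the same n. Both shares were lower in every CD45 library than in every flow-through library, and in each fraction the KO and WT libraries overlapped. The 95% Wilson interval of a library's share was at most 0.0165 percentage points wide, and it covers counting error only. Fewer cells of a type and less RNA per cell cannot be told apart in bulk samples.

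By library, the mitochondrial share was 1.11%, 1.34%, 1.199% and 0.933% in CD45 KO and 0.897%, 1.06% and 0.689% in CD45 WT. It was 3.55%, 3.52% and 2.07% in flow-through KO and 3.65%, 2.698%, 2.86% and 2.54% in flow-through WT. Flow-through KO replicate 3 had the lowest mitochondrial share of its fraction and, at 0.856%, the highest nuclear share. The log2 ratio of mitochondrial to nuclear counts was 1.28 in that library, against 2.16 and 2.19 in the other flow-through KO and 1.79 to 2.13 in the flow-through WT libraries. The same library tilted toward GC-rich genes: genes of at least 55% GC stood 0.33 log2 units above genes under 45% GC relative to the fraction's mean, against -0.14 to 0.05 in the other 6 flow-through libraries. Whether the tilt sets its mitochondrial share was not tested. In the CD45 fraction the log2 ratio was 1.06, 1.38, 1.37 and 0.95 in KO and 0.85, 1.01 and 0.73 in WT libraries, so the lowest KO library lay below the highest WT library.

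**Figure D2:**
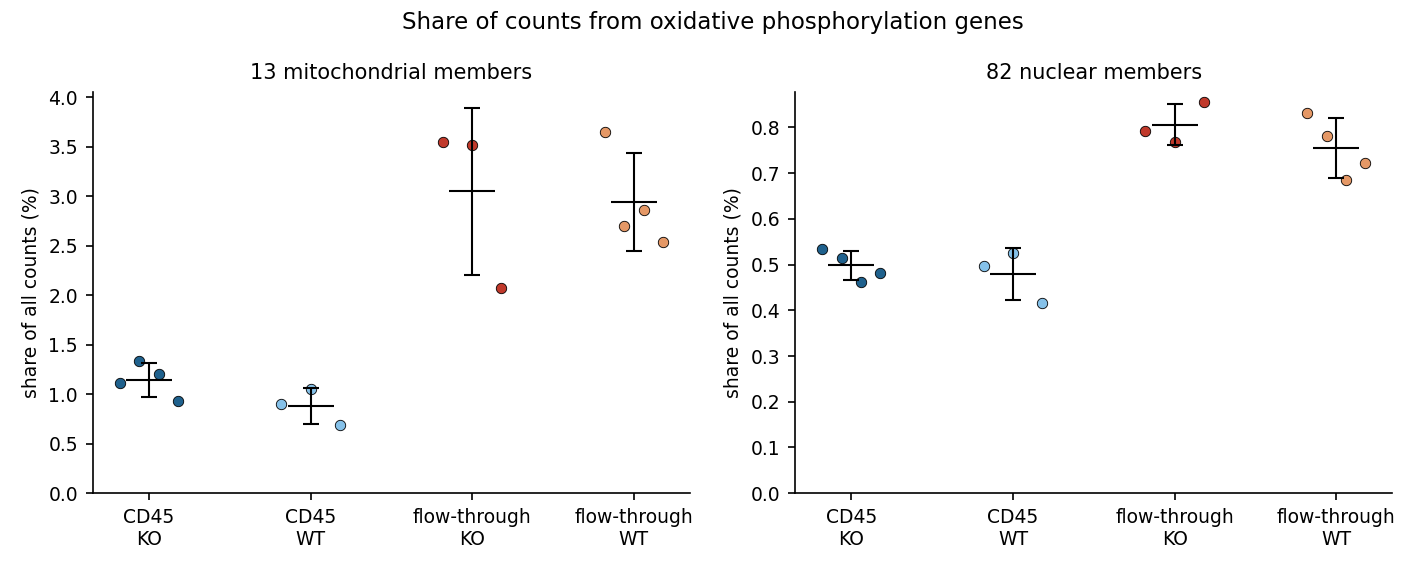
Share of all counts (%) from the 13 mitochondrial members (left) and the 82 nuclear members (right), with 1 point per library and the mean and SD per group. CD45 libraries lie below flow-through libraries in both panels, and the low mitochondrial point in flow-through KO at 2.07% is replicate 3, which has the highest nuclear share, 0.856%.

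The first comparison asks how the flow-through of KO mice differed from that of WT mice. A pair of nuclear members was called higher in KO libraries, Cox8a and Cox6a1, both small subunits of complex IV, and no member was called lower. Of 79 nuclear members tested, 2 were called higher, which is 2 of the 235 genes called higher among 16546 tested (1.42%, edgeR quasi-likelihood test, Benjamini-Hochberg adjusted p under 0.05). A count of 2 is too small to set the members apart from that share. The median log2 fold change over the 79 was 0.08, and 60 of the 79 were above 0, beside a median of -0.01 over all genes tested. Cox6a2, Cox7b2 and Cox8b were too low to be tested.

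Cox8a, subunit 8A of cytochrome c oxidase (complex IV), had 250, 236 and 265 CPM in flow-through KO libraries and 169, 194, 137 and 153 CPM in flow-through WT libraries. All 3 KO libraries lay above all 4 WT libraries. The log2 fold change was 0.64 (SE 0.11, edgeR adjusted p = 0.00781). It was called in every alternative but the fit that adds the library labelled flow-through WT replicate 5, where none of 16656 genes was called.

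Cox6a1, subunit 6A1 of the same complex and its form outside muscle, had 235, 266 and 284 CPM in flow-through KO libraries and 194, 208, 170 and 176 CPM in flow-through WT libraries. The groups did not overlap, and the log2 fold change was 0.51 (SE 0.10, edgeR adjusted p = 0.0173). With GC and length trends removed per library it was 0.29 (edgeR adjusted p = 0.0714). It also missed the threshold without KO replicate 2 or 3 (edgeR adjusted p = 0.0725 and 0.0577) and without WT replicate 3 or 4 (0.0720 and 0.0506). Neither gene has exons that overlap another gene, nor an annotated transcript elsewhere of at least 98% identity over 150 bases.

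The promoters of these 2 genes are shown because they were the only members called between genotypes, with matches to the motifs of known regulators of respiratory genes in capitals (RefSeq, GRCm38.p6, 250 bases before to 50 after the start, 5′ to 3′ on the gene's strand). The Cox8a promoter (chr19:7217567-7217866, minus strand) held 2 matches to GABP, and the Cox6a1 promoter (chr5:115348909-115349208, minus strand) held 1 match to NRF1.
Cox8a promoter: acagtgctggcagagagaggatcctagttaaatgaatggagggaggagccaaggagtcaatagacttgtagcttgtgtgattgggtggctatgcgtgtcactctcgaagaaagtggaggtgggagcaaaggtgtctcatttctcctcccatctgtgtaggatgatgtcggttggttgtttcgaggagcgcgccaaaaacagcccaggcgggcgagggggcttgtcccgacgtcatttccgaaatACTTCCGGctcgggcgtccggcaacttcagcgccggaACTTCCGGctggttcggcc
Cox6a1 promoter: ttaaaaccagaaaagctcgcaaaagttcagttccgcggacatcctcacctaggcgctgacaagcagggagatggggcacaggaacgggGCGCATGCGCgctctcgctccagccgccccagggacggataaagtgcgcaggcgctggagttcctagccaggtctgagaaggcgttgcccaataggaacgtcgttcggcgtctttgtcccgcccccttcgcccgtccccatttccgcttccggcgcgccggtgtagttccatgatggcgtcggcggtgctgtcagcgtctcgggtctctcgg
The motifs were searched on both strands: for NRF1 the run in capitals in the Cox6a1 promoter, for GABP CCGGAAGT, whose other strand is the run in capitals in the Cox8a promoter, and for YY1 AAGATGGCG. Of the 82 nuclear members, 66 had a promoter in the table. NRF1 was matched in 5 of them (7.58%, against 1.07% of 27025 genes), GABP in 5 (7.58%, against 4.31%) and YY1 in 7 (10.6%, against 1.64%). No matches of different motifs overlapped in a member. The promoters of Cox7c and Cox5b, complex IV members described next, held 0 matches. A match is a description of the letters in this window and not a binding site.

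The next members by p in the flow-through were also nuclear subunits of complex IV and did not pass over all genes. Cox4i1, the widely expressed isoform of subunit 4, had 324, 313 and 353 CPM in KO and 286, 265, 234 and 237 CPM in WT libraries and was not called (fold change of 0.40 in log2 units, SE 0.10, edgeR adjusted p = 0.0781). Cox7c, subunit 7C, had 104, 103 and 104 CPM in KO and 93.2, 80.8, 70.3 and 76.2 CPM in WT, also not called (0.40, SE 0.10, edgeR adjusted p = 0.0790). In both genes every KO library lay above every WT library. Cox5b, subunit 5B, named after its values were seen, had 124, 118 and 146 CPM in KO and 101, 118, 86.0 and 103 CPM in WT, likewise not called (0.37, SE 0.10, edgeR adjusted p = 0.129). Cox4i1 shares exon bases with Emc8, Cox7c has look-alike transcripts (Gm10012, 99.4% identical over 315 bases) and so does Cox5b (Gm11273, 99.2% over 390 bases), so their values are uncertain. With DESeq2 4 nuclear members were called (Cox8a, Cox6a1, Cox4i1 and Cox7c), and with no filter on low counts 6 were called (these 4, Cox5b and, of complex I, Ndufb9 at 0.34, edgeR adjusted p = 0.0463). With GC and length trends removed 3 were called, Cox8a, Cox7c (0.60, edgeR adjusted p = 0.0117) and Cox5b (0.40, edgeR adjusted p = 0.0481). Cox7c was also called without WT replicate 1 (0.49, edgeR adjusted p = 0.00726).

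By complex, the median log2 fold change of the nuclear members in the flow-through was 0.25 in complex IV (15 tested, 13 above 0, 2 called), 0.11 in complex I (35 tested, 26 above 0), 0.08 in complex III (8 tested, 6 above 0), 0.04 in complex V (17 tested, 13 above 0) and 0.01 in complex II (4 tested, 2 above 0). Both calls of the fit with the filter were in complex IV. All KO libraries lay above all WT libraries in 6 of the 79 nuclear members, against 5.19% of all genes tested. The members with the smallest p of complexes I, II, III and V were Ndufb8 (0.32, SE 0.10, edgeR adjusted p = 0.211), Sdhb (0.12, SE 0.09, 0.689), Uqcr11 (0.29, SE 0.11, 0.317) and Atp5d (0.22, SE 0.10, 0.436). Cox7a1, the muscle isoform of subunit 7A, was low, at 0.833 to 1.21 CPM in KO and 0.562 to 1.05 CPM in WT, and was not called (0.48, SE 0.32, edgeR adjusted p = 0.645). The lowest log2 fold changes were those of Cox6b2 (-0.24), Atp5s (-0.12), Ndufc2 (-0.12) and Ndufv2 (-0.10), and none passed.

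Of the mitochondrial members, 11 were tested in the flow-through and none was called, with none at an unadjusted p under 0.05 and none called by DESeq2. Their median log2 fold change was 0.08, and its sign depended on single libraries: it was -0.13 without KO replicate 1, -0.04 without KO replicate 2 and 0.32 without KO replicate 3. With GC and length trends removed it was 0.23, with 2 members at an unadjusted p under 0.05 and none called. mt-Co1 had 14497, 14494 and 8933 CPM in KO and 14669, 11479, 11080 and 10198 CPM in WT libraries. Its log2 fold change was 0.12 (SE 0.19, edgeR adjusted p = 0.878). Replicate 3 was the lowest and the other KO libraries were close to the highest WT library. The 10 others ran from -0.18 (mt-Atp6) to 0.84 (mt-Nd4l, at 0.33 to 0.637 CPM in KO and 0.122 to 0.496 CPM in WT libraries). mt-Atp8 and mt-Nd3, at no more than 0.591 CPM, were not tested.

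Some markers of other cells also differed between these libraries. Of 10 neuron markers 1 rose in flow-through KO (Slc17a7, a glutamate transporter of excitatory synapses, 1.19, SE 0.21, edgeR adjusted p = 0.0343) and 1 fell (Gad2, an enzyme of inhibitory neurons, -0.42, SE 0.10, edgeR adjusted p = 0.0494), with a median of 0.39. Their summed level was 901 to 1189 CPM in KO and 854 to 1007 CPM in WT libraries, and none was at 0. The summed level of 5 red cell genes was 10431 to 13424 CPM in KO and 10355 to 28609 CPM in WT libraries. Of 7 endothelial markers 1 was above 0 and none was called, with a median log2 fold change of -0.34. The part of any of these in the complex IV values was not tested.

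The second comparison asks how the CD45 fraction of KO mice differed from that of WT mice, and no member was called. edgeR called none of 15660 genes (0%), though 693 had an unadjusted p under 0.05, and DESeq2 called 10, none of them a member. All 10 mitochondrial members tested had positive log2 fold changes, with a median of 0.36, beside 0.02 over all genes tested. The values ran from 0.24 (mt-Co2 and mt-Co3) to 0.72 (mt-Nd6), and every edgeR adjusted p was 0.974 or above. The unadjusted p was under 0.05 for mt-Nd4 (0.0211), mt-Cytb (0.0438) and mt-Nd2 (0.0498).

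mt-Nd4, a core subunit of complex I, had 727, 932, 856 and 671 CPM in CD45 KO and 578, 703 and 474 CPM in CD45 WT libraries. Its log2 fold change was 0.42 (SE 0.15, edgeR adjusted p = 0.974). mt-Cytb, cytochrome b of complex III, had 1990, 2487, 2173 and 1787 CPM in KO and 1600, 1940 and 1342 CPM in WT libraries (0.35, SE 0.15). In both genes the lowest KO library lay below the highest WT library, and WT replicate 3 was the lowest library. That library tilted toward GC-rich genes by 0.24 log2 units, against -0.11 to 0.06 in the other CD45 libraries, and the part of the tilt was not tested. With GC and length trends removed the median was 0.27. Without WT replicate 3 the median over the mitochondrial members was 0.23, and without WT replicate 2 it was 0.50. The summed level of 10 neuron markers was 28.8 to 158 CPM in CD45 KO and 23.4 to 48.8 CPM in CD45 WT libraries, with a median log2 fold change of 1.18 and none called or at 0. Its part in the mitochondrial values was not tested.

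Of 80 nuclear members tested in the CD45 fraction, 52 were above 0 and the median log2 fold change was 0.04, and it was -0.06 without WT replicate 3. The medians by complex lay between -0.02 (complex II) and 0.05 (complex V). Cox6b1 was the only 1 of the 80 with all KO libraries above all WT libraries (2.92% of all genes tested), at 110, 112, 104 and 105 CPM in KO and 104, 101 and 75.8 CPM in WT libraries. Atp5s had the lowest log2 fold change, at 1.80 to 2.04 CPM in KO and 2.35 to 2.59 CPM in WT (-0.38, SE 0.23, edgeR adjusted p = 0.974). The highest values were those of the low isoforms Cox7a1 (0.34, SE 0.37) and Cox6b2 (0.31, SE 0.31), then Ndufb2 (0.30, SE 0.25) and Uqcrb (0.21, SE 0.15). The lowest after Atp5s were Cox4i2 (-0.17, SE 0.50), Ndufb6 (-0.12, SE 0.16) and Atp5g1 (-0.11, SE 0.13). Cox8a and Cox6a1 lay at 79.4 to 94.4 and 82.6 to 92.6 CPM in CD45 KO, against 84.4 to 95.4 and 78.3 to 100.03 CPM in CD45 WT libraries.

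**Figure D3:**
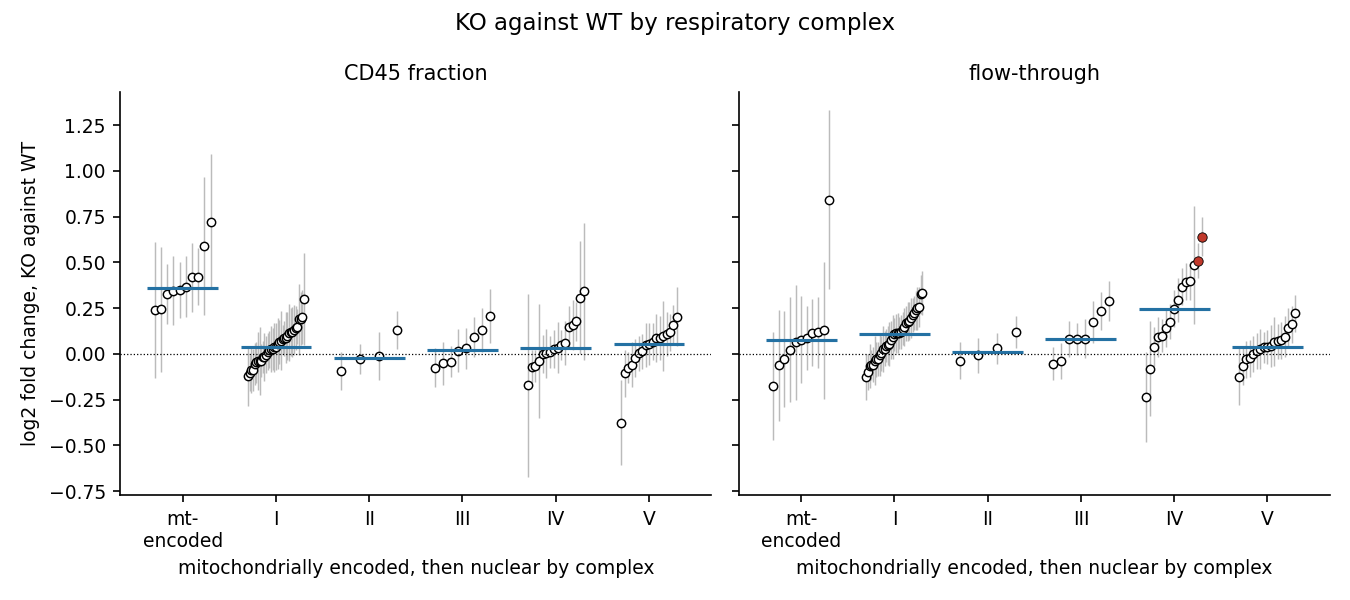
Log2 fold change of KO against WT with its SE for each member tested, in the CD45 fraction (left) and the flow-through (right), grouped as mitochondrially encoded and as nuclear by complex; filled points passed the test and lines are medians. The 2 filled points are Cox8a (0.64) and Cox6a1 (0.51) in the flow-through, and the CD45 mitochondrial median is 0.36.

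The difference between these 2 comparisons was tested as an interaction, the KO-against-WT change in the CD45 fraction minus that in the flow-through. edgeR called none of 18098 genes (0%), with 1305 at an unadjusted p under 0.05, while DESeq2 called 46 genes. Among members the smallest p values belonged to Cox8a (-0.73, SE 0.15, edgeR adjusted p = 0.178) and Cox6a1 (-0.60, SE 0.13, edgeR adjusted p = 0.239), which were the 2 members that DESeq2 called. The edgeR fit with no filter on low counts called Cox8a (-0.76, edgeR adjusted p = 0.0324). The mitochondrial members had a median of 0.27 and the nuclear members of -0.09, with 0 and 6 at an unadjusted p under 0.05. With GC and length trends removed the mitochondrial median was 0.0169.

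**Figure D4:**
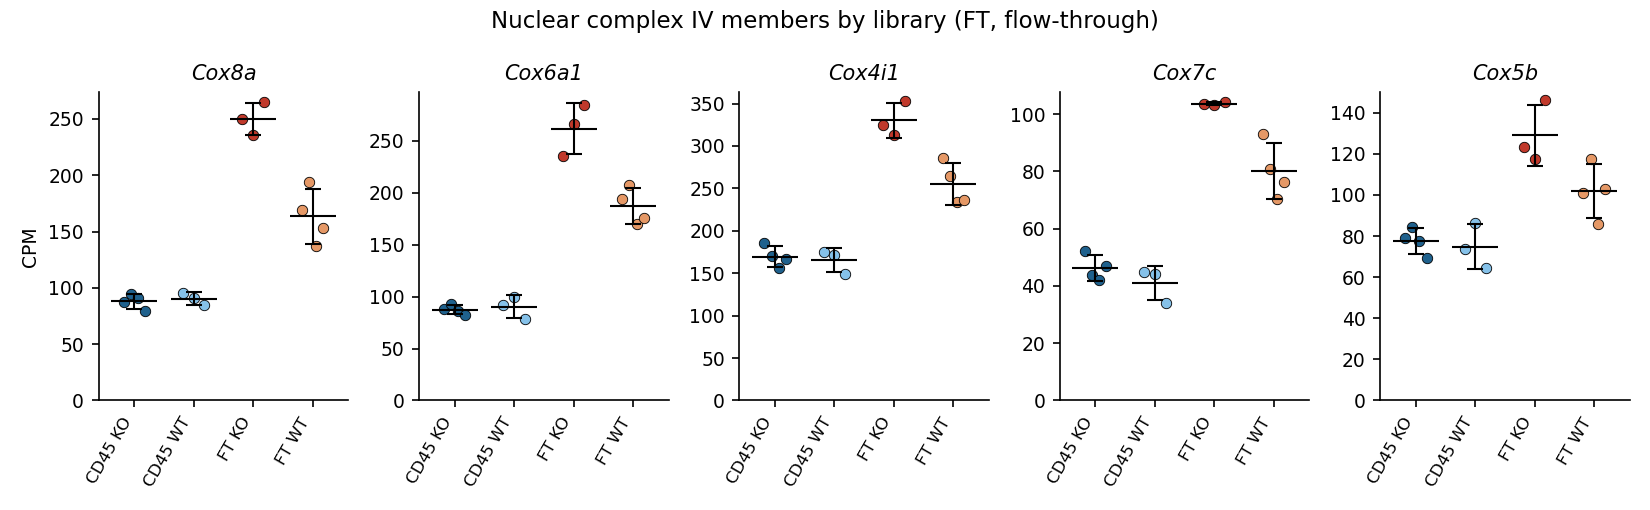
CPM of 5 nuclear complex IV members, with 1 point per library and the mean and SD per group (FT, flow-through). In Cox8a the 3 flow-through KO points lie at 236 to 265 CPM and the 4 flow-through WT points at 137 to 194 CPM, while the CD45 KO and WT points overlap.

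The third comparison sets the CD45 fraction against the flow-through, over both genotypes. Every mitochondrial member tested was lower in the CD45 fraction, while the nuclear members went both ways. edgeR called 11 of 11 mitochondrial members lower (against 44.7% of 18098 genes), with a median log2 fold change of -1.14, beside -0.05 over all genes tested. Among 80 nuclear members 44 were lower and 12 were higher (against 41.4% of all genes called higher), with a median of -0.22. The counts include mt-Nd4l and Cox6a2, which passed the filter on low counts only through the fraction where they are high, so that their calls had to come out as they did. Of the members that passed it in each fraction alone, 10 of 10 mitochondrial ones were lower with a median of -1.11, and of 79 nuclear ones 44 were lower and 11 higher with a median of -0.23. The fractions hold different cells, as the marker levels above show. TMM factors were 0.81 to 0.86 in CD45 and 1.18 to 1.24 in flow-through libraries, so each of these fold changes lies 0.53 log2 units above the fold of plain CPM.

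mt-Co1 had 4150, 5130, 4553 and 3559 CPM in CD45 KO and 3461, 3994 and 2756 CPM in CD45 WT libraries, against 8933 to 14497 CPM in flow-through KO and 10198 to 14669 CPM in flow-through WT libraries. All CD45 libraries lay below all flow-through libraries, and the difference was -1.14 in log2 units (SE 0.14, edgeR adjusted p = 6.75e-07). mt-Nd6, the light-strand gene of a complex I subunit, had the lowest value at -2.56 (SE 0.27, edgeR adjusted p = 3.81e-07). It was at 6.86, 6.74, 4.41 and 2.73 CPM in CD45 KO and 2.76, 2.02 and 4.43 CPM in CD45 WT libraries, against 17.8 to 51.9 CPM in flow-through KO and 28.8 to 42.2 CPM in flow-through WT libraries. mt-Nd5, which lies on the opposite strand beside it and overlaps it by 14 bases, had the value nearest to 0, -0.49 (SE 0.15, edgeR adjusted p = 0.00699). It was at 910 to 1347 CPM in CD45 KO and 714 to 1085 CPM in CD45 WT libraries, against 1311 to 2686 CPM in flow-through KO and 1802 to 2392 CPM in flow-through WT libraries, and the fractions overlapped. As a share of mitochondrial counts, mt-Nd5 took a median of 10.3% in CD45 KO and 10.4% in CD45 WT libraries, against 7.13% in flow-through KO and 7.15% in flow-through WT libraries. mt-Nd1 (-0.92, SE 0.17), mt-Nd2 (-1.23, SE 0.18), mt-Nd4 (-1.15, SE 0.13) and mt-Cytb (-1.07, SE 0.12) lay between. The values of the 4 members within the nuclear copy were mt-Co3 (-0.89), mt-Co2 (-0.92), mt-Atp6 (-1.16) and mt-Nd4l (-1.95). With the KO libraries alone 6 of 10 were called, and mt-Nd5, mt-Co2, mt-Co3 and mt-Atp6 were not.

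Per kb of transcript, Atp5b, the catalytic beta subunit of complex V, had the highest median level of the nuclear members in both fractions, with a median of 308 CPM per kb in the CD45 and 469 CPM per kb in the flow-through libraries. Cox4i1 followed in both (228 and 384 CPM per kb), and it lay below Atp5b in every CD45 library while the ranges overlapped in the flow-through. Its flow-through range of 314 to 474 CPM per kb overlapped that of Cox6a1 (298 to 498) and Cox8a (250 to 481). At the other end Cox7b2, a testis isoform, had no count in any CD45 library, where a count of 0 allows 3 counts or 0.0957 to 0.259 CPM per library, and 0.0476 to 0.403 CPM in the flow-through. Cox8b, a muscle isoform, was at 0 to 0.0412 CPM in the CD45 and 0 to 0.728 CPM in the flow-through libraries.

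By complex, 24 of 35 nuclear members of complex I were lower in the CD45 fraction and 1 was higher (Ndufb7, named after its values were seen). Over all genes tested 44.7% were called lower and 41.4% higher, and the sets of the other complexes are small beside these shares. In complex IV 10 of 16 tested were lower and 5 higher. In complex III 5 of 8 were lower and 2 higher, in complex V 4 of 17 lower and 3 higher, and in complex II 1 of 4 lower and 1 higher. Ndufv1, the subunit that binds NADH, was at 43.3 to 49.1 CPM in CD45 KO and 43.1 to 48.9 CPM in CD45 WT libraries, against 108 to 127 CPM in flow-through KO and 102 to 115 CPM in flow-through WT libraries (-0.74, SE 0.06, edgeR adjusted p = 9.22e-09). Ndufa5, an accessory subunit, was lower by a log2 fold change of -1.02 (SE 0.09) and Ndufb9, which shares exons with Gm49356, by -0.96 (SE 0.12). Atp5s was lower by -1.28 (SE 0.12).

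The split of higher and lower nuclear members depended on the scaling. Upper-quartile scaling gave 5 higher and 63 lower, library totals alone gave 1 higher (Cox6a2) and 74 lower, and removal of GC and length trends gave 5 higher and 67 lower. The 2 scalings moved the median of all genes by -0.25 and -0.53, and relative to that median the nuclear members stood at -0.17 with either and with TMM. With the trends removed they stood at -0.43. The WT libraries alone gave 15 higher and 23 lower, and the KO libraries alone 9 higher and 40 lower. The shares of all genes called higher or lower in each of these settings are not given here. The shares of 41.4% and 44.7% belong to the TMM fit of all 14 libraries, so these counts cannot be read beside them.

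**Figure D5:**
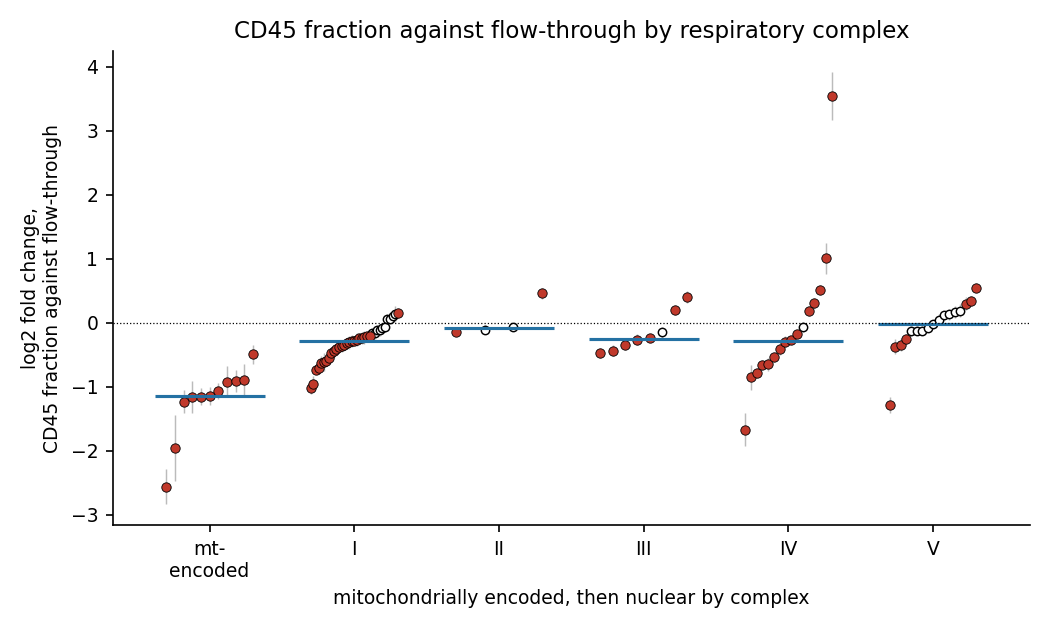
Log2 fold change of the CD45 fraction against the flow-through with its SE for each member tested, grouped as mitochondrially encoded and as nuclear by complex; filled points passed the test and lines are medians. All 11 mitochondrial members are below 0 with a median of -1.14, and the highest nuclear point is Cox6a2 at 3.54.

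Isoforms of complex IV differed between the fractions. Cox6a2, the muscle isoform of subunit 6A, was at 2.59 to 4.12 CPM in CD45 KO and 1.77 to 4.199 CPM in CD45 WT libraries, against 0.136 to 1.15 CPM in flow-through KO and 0.141 to 0.476 CPM in flow-through WT libraries. The difference of 3.54 in log2 units (SE 0.37) is given as a description, since the filter fixed its direction. Its exons share 70 bases with Itgad, a leukocyte integrin gene on the opposite strand that was higher in the CD45 fraction by 3.70 (SE 0.41). Since the strand setting of the counting is not given, reads within these 70 bases cannot be told apart from those of Itgad. How many of the Cox6a2 reads fall there is not given, so its values are uncertain. Per length, Cox6a2 made up 2.89% ± 0.512 (SD, n = 4) of the Cox6a1 and Cox6a2 level in CD45 KO and 2.80% ± 0.818 (SD, n = 3) in CD45 WT libraries, against 0.162% ± 0.173 (SD, n = 3) in flow-through KO and 0.139% ± 0.0725 (SD, n = 4) in flow-through WT libraries. Cox7a1 was called higher in the CD45 fraction (1.01, SE 0.24, edgeR adjusted p = 0.00104), but not with library totals (0.49, edgeR adjusted p = 0.0689) or with GC and length trends removed (0.27, edgeR adjusted p = 0.309). Cox7a2 (-0.41, SE 0.09) and Cox7a2l, known for joining complexes III and IV (-0.18, SE 0.06), were called lower, but not in the WT libraries alone (-0.27 and -0.0137, edgeR adjusted p = 0.0820 and 0.907). Cox7a2l also missed the threshold without CD45 WT replicate 3 (-0.15, edgeR adjusted p = 0.0593).

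Cox4i2, the isoform of subunit 4 linked to low oxygen and found in lung and vessel walls, was at 0.257 to 0.631 CPM in CD45 KO and 0.231 to 0.713 CPM in CD45 WT libraries, against 1.501 to 2.68 CPM in flow-through KO and 1.79 to 2.72 CPM in flow-through WT libraries (-1.67, SE 0.26, edgeR adjusted p = 1.99e-05). It made up 0.158% to 1.033% of the subunit 4 level per length over all libraries, and Cox4i1 the rest. Cox4i1 was called lower (-0.27, SE 0.07), but not in the WT libraries alone (-0.00856, edgeR adjusted p = 0.943). Cox6b2 was called lower (-0.85, SE 0.20), but not in the KO libraries alone (-0.60, edgeR adjusted p = 0.0527). Cox6b1 was called higher by 0.18 (SE 0.08, edgeR adjusted p = 0.0423), yet this turned to -0.08 with upper-quartile scaling, -0.35 with library totals and -0.59 with GC and length trends removed. It also missed the threshold in the KO and in the WT libraries alone and without any 1 of 9 libraries (edgeR adjusted p = 0.0509 to 0.143 for these 9). Cox7b (0.51, SE 0.09) and Sdhd, a membrane anchor of complex II (0.46, SE 0.09), were called higher and turned to -0.02 and -0.07 with library totals and to -0.30 and -0.11 with the trends removed. Atp5l, subunit g of complex V, was called higher by 0.55 (SE 0.07). It has look-alike transcripts (Atp5l2-ps, 99.4% identical over 312 bases), so its values are uncertain. It was at 84.7 to 95.2 CPM in CD45 KO and 68.0 to 90.6 CPM in CD45 WT libraries, against 80.0 to 85.4 CPM in flow-through KO and 74.4 to 97.2 CPM in flow-through WT libraries, so its plain CPM overlapped, and with library totals it was 0.0176 (edgeR adjusted p = 0.827).

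The genes Atp5g1, Atp5g2 and Atp5g3 encode the same mature subunit c of the ATP synthase rotor. Per length, Atp5g3 made up 53.9% ± 2.69 of their level in CD45 KO and 55.1% ± 0.439 in CD45 WT libraries, against 51.8% ± 2.39 in flow-through KO and 52.4% ± 2.14 in flow-through WT libraries. Atp5g1 made up 3.38% to 4.55% as a group mean. Its level was divided by a transcript of 4715 bases, against 441 for Atp5g2 and 714 for Atp5g3. The low share of Atp5g1 therefore depends on the transcript taken for it and is not its share of counts. Between the fractions Atp5g2 was called lower (-0.25, SE 0.07), though it was 0.44 with GC and length trends removed and was not called in the WT libraries alone (-0.22, edgeR adjusted p = 0.0687). Atp5g1 (0.19, SE 0.09, edgeR adjusted p = 0.0699) and Atp5g3 (-0.08, SE 0.07, edgeR adjusted p = 0.342) did not pass. Atp5g1 was called higher in the WT libraries alone (0.33, edgeR adjusted p = 0.0256). It was also called without flow-through WT replicate 1 (0.23, edgeR adjusted p = 0.0310) and without CD45 KO replicate 4 (0.25, edgeR adjusted p = 0.0106). Atp5g3 was called lower with upper-quartile scaling (-0.33), library totals (-0.60) and the trends removed (-0.38). Atp5g2 has look-alike transcripts (Gm10231, 100% identical over 441 bases) and Atp5g1 has 1 (Gm10039, 99.8% over 411 bases). The values of Atp5g2 and Atp5g1, and the shares of the 3 genes, are therefore uncertain.

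Genes that serve the pathway were taken from lists of the pathway, and none of the genes in them was called in either genotype comparison. In the flow-through the median log2 fold change was -0.06 over 14 assembly factors of complex I, 0.03 over 18 of complex IV and -0.05 over 21 genes of mitochondrial DNA expression, beside 0.25 over the nuclear complex IV members. Between the fractions, 9 of 14 complex I assembly factors were lower in the CD45 fraction and none was higher, beside 44.7% lower and 41.4% higher over all genes tested. Of 6 complex III assembly factors 5 were lower, and of 18 of complex IV 5 were lower and 5 higher. Of 3 of complex V none passed. Among the higher ones was Cox17, the copper chaperone of complex IV, at 3.36 (SE 0.11), whose exons overlap those of Gm21987.

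Over all genes tested between the fractions 41.4% were called higher and 44.7% lower, and each count below is to be read beside these shares. Of 21 genes that copy and express mitochondrial DNA, 9 were higher in the CD45 fraction and 5 lower. Tfam, which packages mitochondrial DNA and starts its transcription, was lower by -0.58 (SE 0.07), and Twnk, its helicase, by -0.60 (SE 0.09). Of 15 regulators of mitochondrial biogenesis 10 were higher and 5 lower. The lower ones included the coactivator Ppargc1a (-3.66, SE 0.22) and Ppara (-4.44, SE 0.41), and the higher ones Ppard (1.35, SE 0.08), Nrf1 (0.91, SE 0.06) and Gabpb1 (1.27, SE 0.10). Of 10 hypoxia response genes that act on mitochondria 6 were higher in the CD45 fraction and 1 lower, among them Egln3, an oxygen sensor (3.57, SE 0.16), Ldha, which makes lactate (1.73, SE 0.07), and Pdk1, which holds pyruvate out of the citric acid cycle (1.56, SE 0.08). Of the adenine nucleotide carriers, Slc25a4 was lower (-2.12, SE 0.07) and Slc25a5 higher (0.65, SE 0.07). Of 15 citric acid cycle genes 5 were higher and 6 lower, with Idh3a at -0.69 (SE 0.06) and Mdh2 at 0.69 (SE 0.07). Of 10 genes of import and folding 3 were higher and 4 lower. Of 77 proteins of the mitochondrial ribosome 19 were higher and 18 lower, and of 79 of the cytosolic ribosome 54 were higher and 3 lower. In plain CPM all CD45 libraries lay below all flow-through libraries in 53 of the mitochondrial ribosome genes and above in 2. For the cytosolic ribosome this was 26 below and 1 above, so the calls of higher genes were rarely matched by separate ranges in plain CPM. These calls were made with TMM scaling, and other scalings are not given here for the ribosome genes.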

How the data were processed

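The authors deposited whole-number read counts per gene in 1 table per fraction, without normalization. Per the submitters' processing notes Trim Galore, FastQC, STAR 2.7.9a, DESeq2 and GRCm38 were used. Not given in the sources used here are the counting tool, whether it used strand, and which annotation release. Libraries came from a stranded mRNA kit with 14 PCR cycles, per the labels' protocols, so intervals cover counting error only. Names, exons and lengths are from GENCODE M21, which holds 33113 of the 33223 genes listed; 28 of 82 nuclear members share exon bases with another gene, and 19 have a look-alike transcript.

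Members and lists were chosen with earlier results of these data known. The test was edgeR's robust quasi-likelihood test on these counts (version 4.0.16 in R 4.3.3) with TMM scaling and filterByExpr (minimum count 10, minimum total 15), and p-values were adjusted by Benjamini-Hochberg over all genes tested and called under 0.05. Genotypes were compared within a fraction; fractions and the interaction used 14 libraries and 1 mean per group. Levels are CPM without TMM scaling. Replicates were checked for duplicates: over 18 pairs chi-square per degree of freedom was 10.2 to 55.2, and none was merged. The genes named are all mitochondrial members, the isoform families, the 4 highest and 4 lowest nuclear log2 fold changes, the smallest p in each complex, and any member called between genotypes. Alternatives were DESeq2 1.42.0, other scalings, no filter, GC and length trends removed, other sets of libraries, and each library left out. Scripts were tested on simulated data.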

Additional observations from a re-analysis of the deposited data

Results flagged for a closer look

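In groups of 4 libraries, a highest or lowest value far from the rest was looked for in 96 groups of values (by the gap to the next value over the whole range), of which chance flags about 1 in 20, and 3 were found. mt-Co3, of the members within the nuclear copy, was 5.81 CPM in flow-through WT replicate 1, and the next library had 4.19 CPM. Ndufa5 was 14.8 CPM in CD45 KO replicate 4, and the next library had 12.8 CPM. Ndufv2 was 53.9 CPM in CD45 KO replicate 2, and the next library had 44.7 CPM.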

How the results depend on the processing

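No paired analysis was possible because the labels give no replicate numbers, so those used here follow the order of deposition and pair nothing. In the flow-through KO against WT, 2 nuclear members were called, against 4 with DESeq2, 6 with no filter on low counts and 3 with GC and length trends removed. With the left-out library added 0 were called, and with single libraries left out 1 to 4. Over all genes 260 were called, against 436 with DESeq2, 629 with no filter, 187 with GC and length trends removed, 30 in a joint fit of both fractions and 134 to 287 with single libraries left out. In the interaction DESeq2 called 2 nuclear members and the fit without a filter 1, against 0. Between the fractions the mitochondrial median was -1.67 with library totals and -1.93 with GC and length trends removed, and 6 mitochondrial members were called in the KO libraries alone. The nuclear median was -0.475 with upper-quartile scaling, -0.748 with library totals and -0.578 with the trends removed. The use of library totals was chosen after seeing the data.

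Signs turned as follows, and the cause was not tested. In the flow-through KO against WT with the trends removed, Atp5s was 0.0262, Ndufv2 0.0355, mt-Atp6 0.00378, mt-Co3 0.0784 and mt-Nd1 0.13. With the left-out library added, Atp5s was 0.0648, mt-Co3 0.0469 and mt-Nd1 0.0358, and with library totals mt-Nd2 was -0.00166. With single libraries left out, mt-Atp6 ran from -0.41 to 0.13, mt-Co2 from -0.13 to 0.39, mt-Co3 from -0.35 to 0.28, mt-Cytb from -0.0155 to 0.25, mt-Nd1 from -0.18 to 0.24, mt-Nd2 from -0.16 to 0.32, mt-Nd5 from -0.11 to 0.34 and mt-Nd6 from -0.26 to 0.46. In the CD45 fraction Cox4i2 ran from -0.51 to 0.17 and mt-Co2 from -0.0404 to 0.43. In the interaction Cox6a2 ran from -1.20 to 0.49 and was 1.22 with the added library. Between the fractions, Atp5g1 was -0.0626 with upper-quartile scaling and -0.34 with library totals, Atp5g2 0.44 with the trends removed, Cox6b1 -0.0763, -0.35 and -0.59 with these 3, Cox7b -0.0158 and Sdhd -0.0713 with library totals, and -0.30 and -0.11 with the trends removed. Depth limits the members at under 1 CPM.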

Other observations

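The library labelled flow-through WT replicate 5, which entered no comparison, had 1.36% of its counts in mitochondrial members and 0.522% in nuclear members, with a log2 ratio of 1.38. Cox8a was at 95.7 CPM, Cox6a1 at 98.7 CPM and Cox6a2 at 3.63 CPM in it.

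The mitochondrial ribosomal RNA genes mt-Rnr1 and mt-Rnr2, which are not members, took 0.0608% to 0.0847% of counts in CD45 KO and 0.0546% to 0.0570% in CD45 WT libraries, against 0.505% to 0.920% in flow-through KO and 0.486% to 0.643% in flow-through WT libraries. The log2 fold change of the CD45 fraction against the flow-through was -2.94 (SE 0.14) for mt-Rnr1 and -2.68 (SE 0.14) for mt-Rnr2, beside a median of -1.14 over the mitochondrial members. In the flow-through KO against WT they were 0.54 (SE 0.18, edgeR adjusted p = 0.236) and 0.50 (SE 0.23, edgeR adjusted p = 0.456), and in the CD45 fraction 0.42 (SE 0.15) and 0.44 (SE 0.12), each with an edgeR adjusted p of 0.974.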
